A study of Mus musculus with 55 samples.

Results

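The acetyltransferase p300 was mapped by chromatin immunoprecipitation sequencing (ChIP-seq) in mouse bone marrow-derived macrophages given lipopolysaccharide (LPS) for 2 h in the presence of the milk sugar 3'-sialyllactose (3'SL). Members were the 4 libraries of the comparison among 55 samples of the series: 2 p300 libraries of 3'SL+LPS at 2 h and 2 of 3'SL alone at 2 h, paired by the replicate number in their labels. The rule used labels and no p300 value, and the comparison was chosen to avoid a lone vehicle library of low depth. All 4 libraries therefore carry 3'SL at 100 µg/ml, and the pairs differ in LPS at 10 ng/ml, so the comparison shows the LPS response of sugar-treated cells and not the effect of the sugar. Cells came from the marrow of C57BL/6 mice, as the labels give for replicate 1 and the series' design for all, were grown in medium with macrophage colony-stimulating factor and were kept overnight in 0.5% serum before treatment. They were fixed with disuccinimidyl glutarate and formaldehyde, and the labels of replicate 1 name 2 p300 antibodies. The labels do not say whether the replicates were separate animals or cultures, and the p-values below therefore reflect no more than sample-to-sample spread, part or all of which may be technical.

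LPS is a component of the outer membrane of Gram-negative bacteria. It binds Toll-like receptor 4 (TLR4) on macrophages, whose adaptors switch on the NF-kB and interferon regulatory factors. p300 has no DNA-binding specificity of its own and is brought to enhancers and promoters by such factors, where it acetylates histones, among them lysine 27 of histone H3 (H3K27ac). In macrophages, enhancers bound by the lineage factor PU.1 lie open at rest, and inflammatory signals bring NF-kB, AP-1 and interferon factors to them and to further sites.

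Values are given for 200 bp regions centred on 97113 merged open chromatin peaks, which the authors took from another study of these cells. They are in normalised tags, that is, sequenced tags divided by the library's tags inside tested regions or genes, times a TMM factor. All libraries were then put on the mean scale of the deposited values, which are per 10000000 mapped tags. The unequal share of tags inside the regions, given below, is thus scaled out. Background tags within the regions are not removed, so the libraries can still differ in enrichment. A scaled value also differs from its deposited one. The Socs3 region below, at 641 and 795 normalised tags with 3'SL+LPS, had deposited values of 286.8 and 1257. The 3'SL+LPS libraries held 18130439 and 5401051 mapped tags in replicates 1 and 2, against 15981388 and 4153263 in the 3'SL libraries. The share of tags inside the regions was 8.45% and 26.5% with 3'SL+LPS and 8.04% and 27.5% with 3'SL, against 4.77% in the input library. The replicates thus differ in depth and in enrichment, in the same way in both groups, and the replicate was kept as a block in the fit.

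The sequences under regions of large change are shown first, since the motifs they hold are counted below in regions that gained and lost p300. Each is the forward strand of GRCm38.p6 from RefSeq, the same assembly as mm10, named by the gene with the nearest start. Capitals mark matches to κB (GGG, any 2 bases, then TTTCC or TTCCC), the interferon-stimulated response element (ISRE, GAAA, any 2 bases, then GAAA), AP-1 (TGANTCA), C/EBP (TTGCNNAA), PU.1 (GAGGAAGT) or the E-box of the MITF and TFE factors (TCANGTGA), on both strands. Gains were seen at these 6 regions, at chr11:117977893-117978093 (Socs3, intergenic), chr12:119090274-119090474 (Abcb5, intergenic), chr6:17749652-17749852 (St7, intron 1), chr4:126004183-126004383 (Csf3r, intergenic), chr10:19077853-19078053 (Tnfaip3, intergenic) and chr11:83536265-83536465 (Ccl5, intergenic). Losses were seen at chr4:19856154-19856354 (Slc7a13, intergenic) and chr10:60362395-60362595 (Vsir, intron 3).
Socs3: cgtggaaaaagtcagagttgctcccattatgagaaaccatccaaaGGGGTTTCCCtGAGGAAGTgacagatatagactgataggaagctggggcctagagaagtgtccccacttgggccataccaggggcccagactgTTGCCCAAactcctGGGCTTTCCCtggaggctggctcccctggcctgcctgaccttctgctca
Abcb5: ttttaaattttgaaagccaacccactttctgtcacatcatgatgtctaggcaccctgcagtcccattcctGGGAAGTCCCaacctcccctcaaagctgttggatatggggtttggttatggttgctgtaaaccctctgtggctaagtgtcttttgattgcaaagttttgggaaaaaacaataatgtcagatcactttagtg
St7: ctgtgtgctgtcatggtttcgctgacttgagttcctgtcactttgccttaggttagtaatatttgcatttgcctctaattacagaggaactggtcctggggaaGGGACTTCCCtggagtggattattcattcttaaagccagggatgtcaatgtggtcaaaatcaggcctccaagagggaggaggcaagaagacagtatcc
Csf3r: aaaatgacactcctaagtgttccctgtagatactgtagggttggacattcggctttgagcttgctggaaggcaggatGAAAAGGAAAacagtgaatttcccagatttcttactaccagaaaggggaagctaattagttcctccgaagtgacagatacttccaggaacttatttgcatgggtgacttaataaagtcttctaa
Tnfaip3: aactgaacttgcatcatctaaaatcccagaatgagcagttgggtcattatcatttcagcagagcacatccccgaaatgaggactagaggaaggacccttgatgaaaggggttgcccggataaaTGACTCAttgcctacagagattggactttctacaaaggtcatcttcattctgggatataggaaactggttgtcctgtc
Ccl5: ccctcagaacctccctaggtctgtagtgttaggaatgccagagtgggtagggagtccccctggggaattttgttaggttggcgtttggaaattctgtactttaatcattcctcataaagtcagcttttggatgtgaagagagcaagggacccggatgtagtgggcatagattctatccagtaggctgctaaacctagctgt
Slc7a13: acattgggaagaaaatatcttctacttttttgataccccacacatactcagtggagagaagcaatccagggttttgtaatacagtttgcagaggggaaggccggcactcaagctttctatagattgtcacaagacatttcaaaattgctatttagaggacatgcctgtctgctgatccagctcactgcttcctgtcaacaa
Vsir: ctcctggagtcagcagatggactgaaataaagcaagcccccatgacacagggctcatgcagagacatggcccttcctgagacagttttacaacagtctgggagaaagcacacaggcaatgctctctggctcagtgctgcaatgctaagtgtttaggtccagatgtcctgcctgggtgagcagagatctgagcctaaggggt
The Socs3 region holds 2 κB matches beside a PU.1 and a C/EBP match, and the Abcb5 and St7 regions hold 1 κB match each. The Csf3r region holds an ISRE match and the Tnfaip3 region an AP-1 match. None of the searched letters occurs in the Ccl5, Slc7a13 or Vsir regions, which says only that these letters are not in the window. The regions shown were picked from 10 named gained and 6 named lost regions and do not measure how often motifs occur. Of the gained regions not shown, those of Mir101b and Lad1 hold no match, Alpk2 1 E-box match and Acod1 1 C/EBP match. Of the lost regions not shown, that of Rttn holds 2 E-box matches and those of 4931440F15Rik, 4930486L24Rik and Mir6403 hold none.

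At 2 h, p300 was higher with 3'SL+LPS at 2737 of 62225 tested regions (4.4%) and lower at 1044 (1.68%), in all 6.08%, by limma's trended test at an adjusted p below 0.05 with no fold threshold. Gains were thus the larger share, at 72.4% of calls. Each of the 2737 higher and 1044 lower regions changed in its direction in both replicate pairs. The calls were made on these same pairs, so this agreement is largely built into them. Higher regions had a median log2 change of 2.46 in pair 1 and 2.89 in pair 2, and lower regions -1.79 in pair 1 and -2.42 in pair 2. Over all tested regions the 2 pairs' changes correlated with r = 0.39, a description over 62225 regions that includes many regions of few tags. The higher regions lay nearest to 1539 genes and the lower regions to 697 genes, with 62 genes in both sets. The overlap of unrelated gene sets of these sizes was not computed. The count of 62 therefore does not show that gains and losses fall at separate genes. Without the replicate block 742 regions passed, 674 higher and 68 lower, all of them among the 3781. Leaving out 1 of the 4 libraries, with the lone library of that group assumed to vary like the other groups, left 1136 (without 3'SL+LPS replicate 2), 1751 (without 3'SL replicate 2), 1865 (without 3'SL+LPS replicate 1) or 2831 calls (without 3'SL replicate 1).

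**Figure D1:**
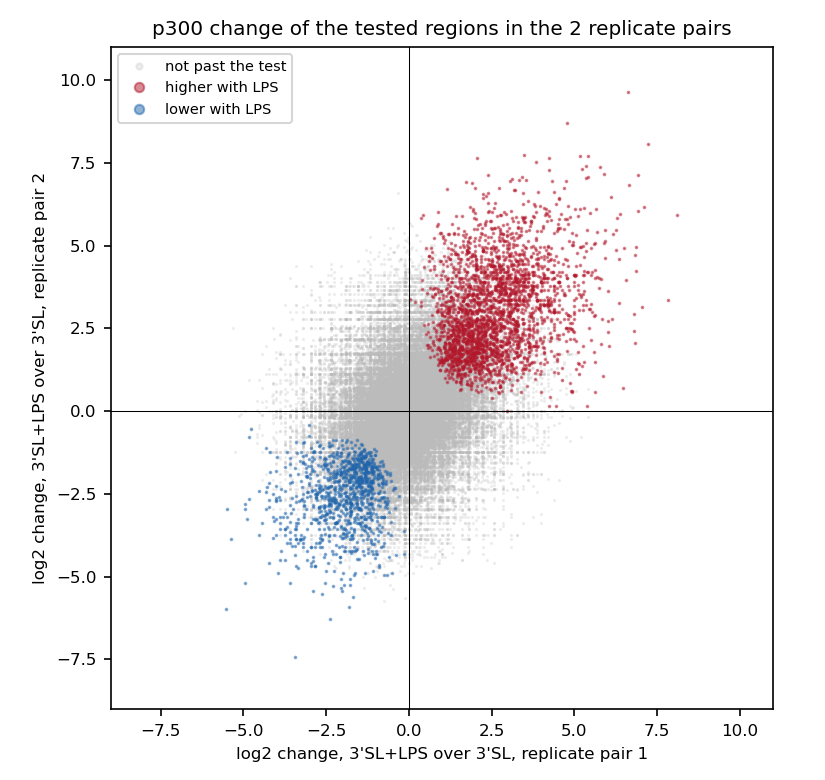
Each point is 1 of the 62225 tested regions, with its log2 change of p300 (3'SL+LPS over 3'SL at 2 h, normalised tags + 1) in replicate pair 1 on the x axis and in pair 2 on the y axis. The 2737 regions called higher (red) lie at the upper right and the 1044 called lower (blue) at the lower left, while regions past neither test (grey) spread around 0.

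The largest gain was beside Socs3, which encodes a feedback inhibitor of cytokine receptors. The region at -8627 bp from its start held 641 and 795 normalised tags with 3'SL+LPS and 5.48 and 0 with 3'SL. Both LPS libraries were thus far above both libraries without it, and the log2 change was 8.13 (SE 0.49, adjusted p = 1.06e-12). The region near Csf3r, the receptor gene of granulocyte colony-stimulating factor, held 287 and 411 tags with 3'SL+LPS and 9.58 and 0 with 3'SL (6.73, SE 0.55, adjusted p = 1.61e-09). Several gained regions had no tag at all in either 3'SL library, so that only a lower bound of the fold can be given, from a floor of 3 tags over the group. Such regions were those near Ccl5, the gene of a T cell and monocyte chemokine (275 and 59.7 tags with 3'SL+LPS, at least 80.4-fold higher, adjusted p = 1.05e-07), and Abcb5, a transporter gene (119.5 and 138 tags, at least 63.1-fold higher, adjusted p = 4.59e-08). The latter region lies at -123953 bp from the start of Abcb5. Likewise without tags under 3'SL were the regions near Mir101b (41439 bp from its start, at least 52.2-fold higher), the promoter of Acod1, which encodes the enzyme of itaconate synthesis (135.5 and 71.4 tags, at least 50.2-fold higher), and intron 1 of St7 (57.9 and 142 tags, at least 49.3-fold higher).

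With 1 to 3 tags under 3'SL, the ratio is given with an exact 95% interval that covers counting error only. The region at -62543 bp from the start of Tnfaip3, which encodes the NF-kB inhibitor A20, held 217 and 208 normalised tags with 3'SL+LPS. With 3'SL it held 4.11 and 0, a ratio of 104 (35.3 to 506). The region near Lad1, the ladinin gene, held 128 and 165 tags with 3'SL+LPS and 1.37 and 0 with 3'SL, a ratio of 216 (38.4 to 8555). The intronic region of Alpk2, a kinase gene on chromosome 18, held 349 and 268 tags with 3'SL+LPS and 1.37 and 0 with 3'SL, a ratio of 451 (80.6 to 17840). All 10 of these gained regions kept an adjusted p below 0.05 without any 1 of the 4 libraries. Their input values were low, 0 to 4.85 tags on the authors' scale, which is not the scale of the normalised tags.

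Among losses, an intronic region near 4931440F15Rik held no tag in either 3'SL+LPS library. With 3'SL it held 45.2 and 62.5 normalised tags, so that p300 was at least 29.9-fold lower with 3'SL+LPS (adjusted p = 1.59e-07). The intronic region of Vsir, the gene of the immune checkpoint receptor VISTA, held 6.16 and 0 tags with 3'SL+LPS, against 76.7 and 171 with 3'SL (log2 change -5.43, SE 0.72, adjusted p = 4.34e-06). The region near Slc7a13, an amino acid transporter gene, held 2.465 and 10.54 tags with 3'SL+LPS, against 144 and 167 with 3'SL (-4.62, SE 0.70, adjusted p = 3.6e-05). In these 3 regions every 3'SL+LPS library lay below every 3'SL library. The regions near Rttn on chromosome 18 (-4.42), 4930486L24Rik (a ratio of 33.3, interval 11.03 to 165, from 88 tags with 3'SL and 3 with 3'SL+LPS) and Mir6403 (-4.34, at -51561 bp from its start) were lower as well. Each of the 6 kept its call without any 1 library. The call near Rttn was lost without the replicate block, by limma and by edgeR, and that near Mir6403 by edgeR alone.

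Regions that gained p300 lay mostly away from promoters. Of the 2737 higher regions, 8.18% were annotated as promoters in the deposited table, 41.6% as introns and 46.4% as intergenic. Of the 1044 lower regions, 3.54% were promoters, 53.4% introns and 39.8% intergenic. Of all 62225 tested regions, 19.2% were promoters, 41.9% introns and 33.9% intergenic. The median distance to the nearest start was 18000 bp for higher and 24400 bp for lower regions, against 12400 bp for all. Neighbouring windows can share bases, as 9.65% of higher and 8.52% of lower regions did with another tested region, against 5.53% of all.

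Motif matches were counted in gained, lost and all tested regions, as a description without a test. A κB match was present in 512 of 2737 higher regions (18.7%) and in 6 of 1044 lower regions (0.575%), against 3.58% of all tested regions of the same length. Read the other way, of the 2226 regions with a κB match 512 were called higher and 6 lower, and their median log2 change was 1.08, against -0.04 without a match. An ISRE match was present in 9.35% of higher and 1.82% of lower regions, against 3.65% of all. An AP-1 match was present in 28.5% of higher and 19.4% of lower regions, against 20.0% of all. C/EBP matches occurred in 17.1% of higher and 15.4% of lower regions, against 11.6% of all. PU.1 matches occurred in 7.12% of higher and 15.4% of lower regions, against 10.0% of all. The E-box of the MITF and TFE factors, basic helix-loop-helix regulators of lysosome genes, was present in 3.14% of higher and 7.18% of lower regions, against 2.99% of all. Matches to different motifs overlapped rarely, the most in 7.97% of the regions with this E-box, where an AP-1 match shared its bases. Base composition was close, with a median GC content of 47.3% in higher and 48.3% in lower regions, against 49.8% in all. A match is a run of letters and not a measured binding site.

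The regions were also set against other deposited peak lists, as a description without a test. LXR and SREBP are transcription factors that control cholesterol export and synthesis, and their peaks and a further p300 list came from macrophages given the LXR agonist GW3965. Of the 1044 lower regions, 79.9% overlapped an LXR peak by at least 1 bp, 75.8% a SREBP peak and 91.6% a p300 peak of those cells. Of the 2737 higher regions, 33.9% overlapped an LXR peak, 34.9% a SREBP peak and 59.8% such a p300 peak. Over all tested regions the shares were 33.8%, 32.2% and 48.7%. The lower regions also had more p300 without LPS. A loss needs tags to lose, so a higher level without LPS is partly built into such calls. The 2 libraries of 3'SL at 6 h are not among the 4 compared, although they enter the same fit. In them the median of the lower regions was 71.3 and 58.4 normalised tags, against 13.2 and 10.5 in the higher regions and 13.2 and 12.2 in all. The part of this level in the overlap was not tested. The deposited p65 peak list, from macrophages of another study, overlapped only 1.83% of tested regions, with 4.53% of higher and 0.958% of lower regions. A κB match lay within the central 201 bp of 1.66% of its 41190 peaks on assembled chromosomes, below the 2.94% of the p300 list, and nothing was read from it.

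**Figure D2:**
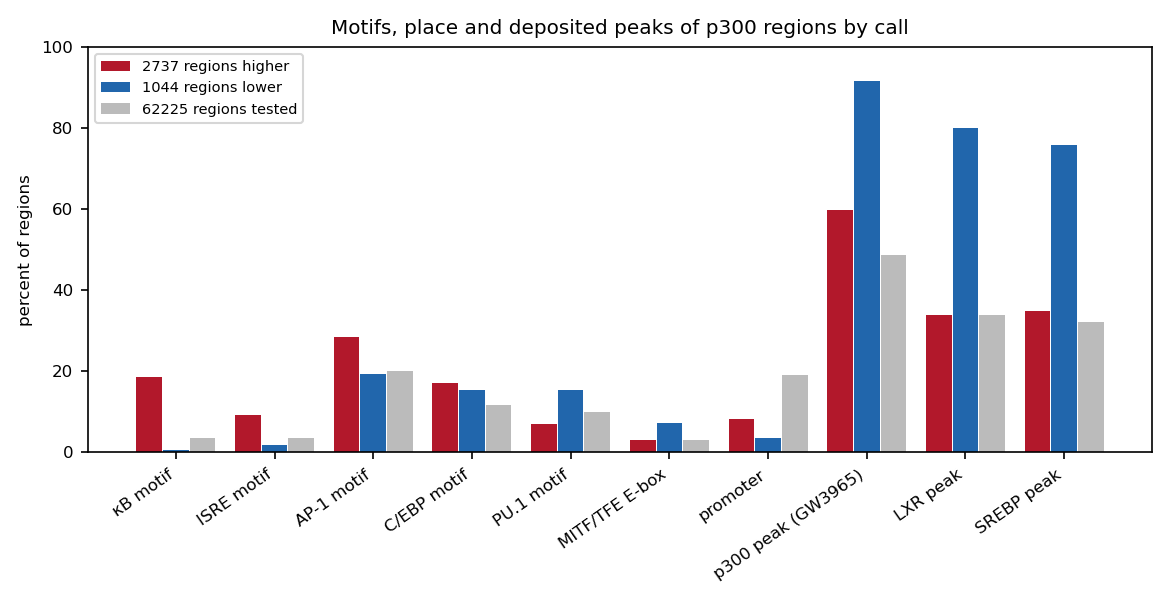
Bars give the percent of regions (y axis, from 0) with each motif match, promoter annotation or deposited peak, for the 2737 regions with more p300 under 3'SL+LPS (red), the 1044 with less (blue) and all 62225 tested (grey). The κB bar is 18.7% in higher regions against 0.575% in lower, and the LXR bar 33.9% against 79.9%.

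To put the windows of a locus together, tags were summed over all regions within 50000 bp of the start of the gene they are nearest to. Of 15570 genes tested, 765 were higher with 3'SL+LPS (4.91%) and 412 lower (2.65%), in all 7.56%, and the median log2 change over all genes was -0.02. These sums describe p300 near a gene and not its RNA. In bulk samples, p300 in more cells and more p300 per cell cannot be told apart.

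Of 23 tested cytokine and chemokine genes driven by NF-kB, 14 gained p300, none was lower and 9 did not pass, and the median log2 change was 1.12. Among all 15570 genes, 4.91% were higher and 2.65% lower. Cxcl10, the gene of an interferon-induced chemokine, held 636 and 356 normalised tags with 3'SL+LPS and 12.4 and 20.0 with 3'SL (log2 change 4.83, SE 0.41, adjusted p = 3.98e-08), with 4 of its 5 regions called higher. Ccl5 held 1977 and 944 tags with 3'SL+LPS and 105 and 69.9 with 3'SL (3.98, SE 0.28, adjusted p = 4.54e-09), with 8 of 9 regions called. Il1a, the gene of the cytokine IL-1α, held 1251 and 795.5 tags with 3'SL+LPS and 248 and 201 with 3'SL (2.15, SE 0.27, adjusted p = 9.58e-06). Both LPS libraries were above both others in each of these genes. Ccl4, a chemokine gene, held 885 and 789.7 tags with 3'SL+LPS and 284 and 298 with 3'SL (1.52, adjusted p = 0.000226). Il10, the gene of an anti-inflammatory cytokine, held 641 and 712.5 tags with 3'SL+LPS and 259 and 235 with 3'SL (1.45, adjusted p = 0.000701). The call of Il10 was lost without the replicate block, by limma (adjusted p = 0.0524) and by edgeR, and when only regions within 1000 bp of the start were summed.

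Il1b, Tnf, Il6 and Il12b, cytokine genes of the same list, had log2 changes between 1.03 and 1.60, and their calls were lost when single libraries were left out. All 4 calls were also lost without the replicate block, by limma (adjusted p = 0.133, 0.389, 0.273 and 0.239, in this order) and by edgeR. That of Il12b was lost as well when only regions within 20000 bp or 1000 bp of the start were summed. Il1b held 961 and 1141 normalised tags with 3'SL+LPS and 242.5 and 488 with 3'SL (log2 change 1.60, SE 0.34, adjusted p = 0.00284). Tnf held 464.5 and 160.3 tags with 3'SL+LPS and 169.5 and 79.8 with 3'SL (1.22, SE 0.30, adjusted p = 0.00936). Il6 held 109 and 201 tags with 3'SL+LPS and 60.6 and 67.0 with 3'SL (1.20, adjusted p = 0.0136). Il12b, the gene of the shared subunit of IL-12 and IL-23, held 195 and 153 tags with 3'SL+LPS and 95.1 and 74.2 with 3'SL (1.03, adjusted p = 0.0352). The groups overlap for Tnf, whose replicate 2 with 3'SL+LPS lay below replicate 1 with 3'SL, and not for Il1b, Il6 and Il12b. With 1 library left out, the call of Il12b was lost without any of the 4 libraries, and it was also lost on the authors' scaling. That of Il1b was lost without either 3'SL+LPS library or 3'SL replicate 1, that of Il6 without either 3'SL+LPS library or 3'SL replicate 2, and that of Tnf without 3'SL+LPS replicate 1 or 3'SL replicate 2. Adjusted p then reached 0.3 for Il12b, 0.0849 for Il1b, 0.237 for Il6 and 0.339 for Tnf. Over the list of 23, the count of higher genes was 7 without 3'SL+LPS replicate 1, 7 without 3'SL+LPS replicate 2, 8 without 3'SL replicate 2 and 11 without 3'SL replicate 1, and 4 without the replicate block.

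Of 16 tested NF-kB genes and genes of their inhibitors, 11 gained p300 and none was lower (median log2 change 1.28), against 4.91% higher among all genes. Rela (0.74, adjusted p = 0.135) and Relb (0.34, adjusted p = 0.705), which encode subunits, did not pass. Nfkb1, which encodes the p105 precursor of the p50 subunit, held 782 and 680.2 normalised tags with 3'SL+LPS and 145 and 118 with 3'SL (2.47, SE 0.25, adjusted p = 4.74e-07). Tnfaip3 held 1715 and 2066 tags with 3'SL+LPS and 468.5 and 318 with 3'SL (2.28, SE 0.28, adjusted p = 8.45e-06), with 10 of 21 regions called higher. Nfkbia, the gene of the inhibitor IkBα, held 1449 and 1728 tags with 3'SL+LPS and 479.6 and 512 with 3'SL (1.67, SE 0.26, adjusted p = 0.000115). Nfkbiz, the gene of the nuclear inhibitor family member IkBζ, held 563.5 and 620.3 tags with 3'SL+LPS and 110.2 and 212.5 with 3'SL (1.94, SE 0.28, adjusted p = 5.78e-05). In these 4 genes the libraries of the 2 groups did not overlap, and none lost its call without any 1 library, while Nfkbiz lost it by edgeR without the replicate block. The count over the list was 5 without 3'SL+LPS replicate 2, 7 without 3'SL+LPS replicate 1, 8 without 3'SL replicate 1 and 4 without the replicate block.

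Feedback inhibitors of signalling were split. Of 14 tested, 4 were higher and none lower (median 0.79), against 4.91% higher and 2.65% lower among all genes. Socs3 held 3094 and 3845 normalised tags with 3'SL+LPS and 344.5 and 449 with 3'SL (log2 change 3.13, SE 0.29, adjusted p = 1.62e-07), and 13 of its 16 regions were called higher. Cish, another gene of the family, held 287 and 263 tags with 3'SL+LPS and 28.9 and 49.9 with 3'SL (2.82, SE 0.35, adjusted p = 8.45e-06). Dusp2, a MAP kinase phosphatase gene, held 286 and 402 tags with 3'SL+LPS and 85.4 and 37.1 with 3'SL (2.57, SE 0.35, adjusted p = 2.41e-05). These 3 kept their calls without any 1 library. Sbno2 (1.37, adjusted p = 0.00241) lost its call without replicate 2 of either group (adjusted p up to 0.235).

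Genes of effector enzymes and costimulation gained p300 in 9 of 14 cases, against 4.91% of all genes, with none lower and a median log2 change of 1.66. Sod2, the mitochondrial superoxide dismutase gene, held 402 and 443 normalised tags with 3'SL+LPS and 56.5 and 42.8 with 3'SL (3.08, SE 0.30, adjusted p = 2.26e-07). Acod1 held 235 and 130.3 tags with 3'SL+LPS and 35.8 and 12.8 with 3'SL (2.96, SE 0.37, adjusted p = 8.45e-06). Nos2, the gene of inducible nitric oxide synthase, held 404 and 318 tags with 3'SL+LPS and 81.3 and 57.04 with 3'SL (2.38, SE 0.30, adjusted p = 9.27e-06). Cd40, a costimulatory receptor gene, held 280.5 and 146 tags with 3'SL+LPS and 38.6 and 28.5 with 3'SL (2.58, SE 0.34, adjusted p = 2e-05). In all 4 genes the groups did not overlap and the genes kept their calls without any 1 library, and Cd40 lost its call without the replicate block. Ptgs2, the gene of the inducible cyclooxygenase, has 1 region in the window and held 22.8 and 40.4 tags with 3'SL+LPS and 15.2 and 2.85 with 3'SL, and did not pass (1.99, SE 0.92, adjusted p = 0.23). The count over the list was 6 without 3'SL+LPS replicate 1 and 4 without the block.

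Interferon response genes were higher in 12 of 30 cases, against 4.91% of all genes, and lower in none, with a median log2 change of 1.20. The list summed to 7319 and 3640 normalised tags with 3'SL+LPS and 2041 and 2112 with 3'SL, so the gain was larger in pair 1. Some members did not rise in pair 2, such as Ifit3 (3.52 in pair 1, -0.02 in pair 2) and Usp18 (1.58 and -0.52), neither of which passed. The 4 genes given next rose in both pairs. Gbp5, a guanylate-binding protein gene, held 877 and 386 normalised tags with 3'SL+LPS and 55.1 and 47.1 with 3'SL (3.49, SE 0.30, adjusted p = 6.72e-08). Its relative Gbp2 held 582.5 and 137 tags with 3'SL+LPS and 23.4 and 41.4 with 3'SL (3.14, SE 0.47, adjusted p = 8.54e-05). Rsad2, the viperin gene, held 798 and 354 tags with 3'SL+LPS and 33.1 and 109.8 with 3'SL (3.12, SE 0.47, adjusted p = 9.38e-05). Mx2, an antiviral GTPase gene, held 350.3 and 151 tags with 3'SL+LPS and 27.6 and 37.1 with 3'SL (2.81, SE 0.42, adjusted p = 9.12e-05). In all 4, replicate 1 with 3'SL+LPS was the highest library, the groups did not overlap, and the calls held without any 1 library, while Gbp2 lost its call without the replicate block (adjusted p = 0.0899). Guanylate-binding and Mx genes have near-identical neighbours, among which reads could be split by the authors' mapping. Irf1, an interferon regulatory factor gene, held 420.1 and 165 tags with 3'SL+LPS and 97.8 and 149.7 with 3'SL and missed the threshold (1.11, SE 0.35, adjusted p = 0.0546). The count over the list was 8 without 3'SL replicate 1 and 5 without the block.

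Genes of the receptor, its adaptors and kinases were next, to be read against 4.91% higher and 2.65% lower among all genes. Of 21 genes of TLR4 signalling, 4 were higher and none lower (median 0.35), which was 1 without 3'SL+LPS replicate 1, 2 without 3'SL replicate 1 and 1 without the block. Tab2, which encodes an adaptor of the kinase TAK1, held 260.2 and 242 normalised tags with 3'SL+LPS and 68.9 and 84.1 with 3'SL (log2 change 1.71, SE 0.30, adjusted p = 0.000456), and it kept its call without any 1 library. Traf1 (1.41, adjusted p = 0.00159), the receptor gene Tlr2 (1.36, adjusted p = 0.00409) and the kinase gene Ikbke (1.01, adjusted p = 0.0116) each lost their calls without at least 1 library, Traf1 without 3'SL+LPS replicate 1, Tlr2 without replicate 1 of either group and Ikbke without any of the 4. Of 15 tested AP-1 and ATF factor genes, 3 were higher and 1 lower (median 0.10), and the block decided them, with none called without it. Batf held 350.3 and 498 tags with 3'SL+LPS and 136 and 177 with 3'SL (1.42, adjusted p = 0.00127). Junb held 595 and 724 tags with 3'SL+LPS and 303 and 234 with 3'SL (1.30, adjusted p = 0.00189). Batf2 was higher (1.65, adjusted p = 0.0154) and Fosb, an immediate early gene, lower (-1.18, adjusted p = 0.0245). Without 3'SL+LPS replicate 2 none of the 4 passed. The counts were 2 higher without 3'SL+LPS replicate 1 or 3'SL replicate 2, both with none lower, and 2 higher and 1 lower without 3'SL replicate 1.

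Beyond these lists, the genes of largest gain were of other kinds. Lad1 held 188 and 194 normalised tags with 3'SL+LPS and 11.02 and 2.85 with 3'SL (log2 change 4.82, SE 0.49, adjusted p = 4.46e-07). Cp, the gene of the copper-carrying ferroxidase ceruloplasmin, held 96.4 and 136 tags with 3'SL+LPS and 2.76 and 5.70 with 3'SL (4.53, SE 0.57, adjusted p = 9.58e-06). Slc5a1, a sodium-glucose transporter gene, held 121 and 130.3 tags with 3'SL+LPS and 6.89 and 5.70 with 3'SL (4.12, SE 0.44, adjusted p = 8.53e-07). Inpp5b, an inositol phosphatase gene, held 269 and 518 tags with 3'SL+LPS and 35.8 and 12.8 with 3'SL (4.05, SE 0.38, adjusted p = 1.69e-07). The other genes of this rank were Zfp811 (4.08), Ppm1n (4.08), Bcl2a1a (4.06), Ifi205 (3.97), Upk3b (3.78) and E230016K23Rik (3.62), with adjusted p from 9.38e-09 to 5.42e-05. Bcl2a1a, an apoptosis inhibitor gene, and Ifi205, an interferon-inducible gene, each belong to families of near-identical copies, so their values are uncertain. None of these 10 lost its call without any 1 library. Without the block, Ppm1n lost its call and, by edgeR, E230016K23Rik did, and Inpp5b lost its call when only regions within 1000 bp of the start were summed.

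**Figure D3:**
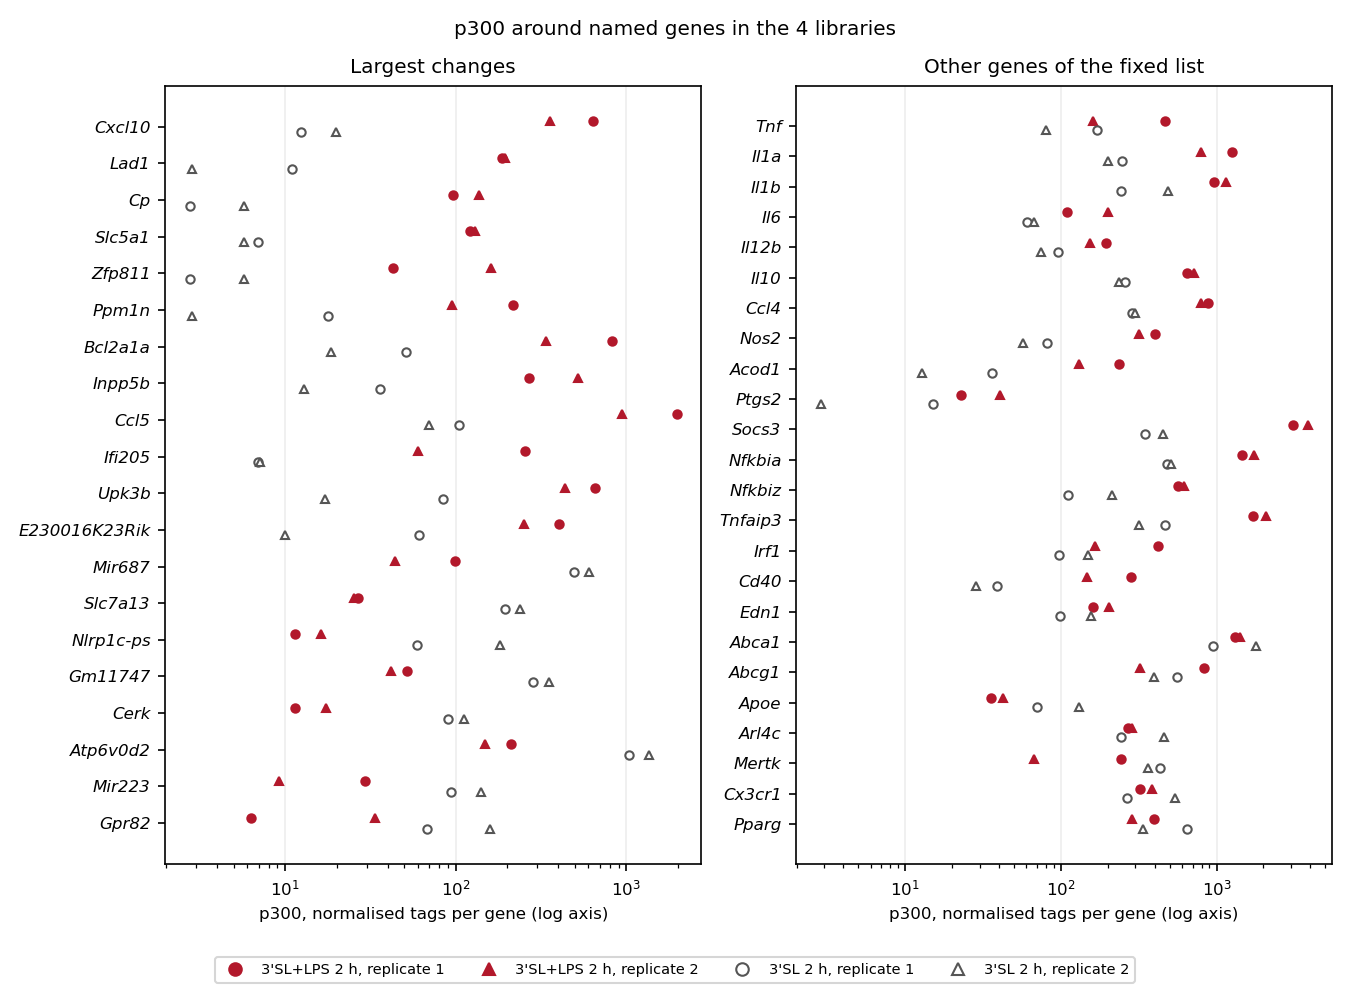
Rows are genes and the x axis gives p300 in normalised tags summed per gene on a log axis, with 3'SL+LPS at 2 h as filled red and 3'SL at 2 h as open grey markers, circles for replicate 1 and triangles for replicate 2. The left panel holds the genes of largest change, where the groups are apart in each row, and the right panel other genes chosen by name, where Socs3 is apart and Abca1 overlaps.

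Lysosome genes were among those that lost p300. Of 18 lysosome genes, 4 were lower and none higher, with a median log2 change of -0.36 and 4 of 18 above 0. Among all 15570 genes, 2.65% were lower and 4.91% higher. Atp6v0d2, which encodes a subunit of the proton pump of lysosomes and osteoclasts, held 211 and 149 normalised tags with 3'SL+LPS and 1035 and 1360 with 3'SL (-2.74, SE 0.29, adjusted p = 8.53e-07), and 9 of its 14 regions were called lower, although the call was lost when only regions within 1000 bp of the start were summed. Ctsd, the gene of the protease cathepsin D, held 552 and 322 tags with 3'SL+LPS and 1422 and 657 with 3'SL (-1.20, SE 0.29, adjusted p = 0.0106). Lgmn, the legumain gene, held 520.3 and 402 tags with 3'SL+LPS and 1009 and 955 with 3'SL (-1.10, adjusted p = 0.0104). Gpnmb, a transmembrane glycoprotein gene, held 683 and 57.6 tags with 3'SL+LPS and 1349 and 158 with 3'SL (-1.21, adjusted p = 0.0215), so that the groups overlap and only the pairs separate. Only Atp6v0d2 of these 4 kept its call without any 1 library. The count over the list was 1 without 3'SL+LPS replicate 2, 2 without each of the other libraries and 1 without the block.

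Of 17 tested LXR target genes, 3 were lower and none higher (median -0.15), against 2.65% lower and 4.91% higher among all genes. Mertk, the gene of a receptor for dying cells, held 244 and 66.9 normalised tags with 3'SL+LPS and 433 and 361 with 3'SL (-1.62, SE 0.34, adjusted p = 0.0026). Apoe, the apolipoprotein gene, held 35.5 and 42.7 tags with 3'SL+LPS and 70.3 and 131 with 3'SL (-1.28, SE 0.40, adjusted p = 0.047). Abca9, a transporter gene, held 57.1 and 61.1 tags with 3'SL+LPS and 114 and 217 with 3'SL (-1.40, adjusted p = 0.00869). The groups did not overlap in these 3, yet none of the 3 passed without 3'SL+LPS replicate 2, without 3'SL replicate 2 or without the block, and 1 passed without 3'SL+LPS replicate 1 and 2 without 3'SL replicate 1. Mertk also lost its call with regions within 20000 bp or 1000 bp. The cholesterol exporter genes did not pass when all regions of the gene window were summed. When only regions within 1000 bp of the start were summed, Abca1 was called higher (1.66, adjusted p = 0.00417). Abca1 held 1314 and 1411 tags with 3'SL+LPS and 945 and 1788 with 3'SL (0.07, SE 0.29, adjusted p = 0.947), and 2 of its 15 regions were called higher and 2 lower. Abcg1 held 831 and 324 tags with 3'SL+LPS and 557 and 398 with 3'SL (0.14, SE 0.28, adjusted p = 0.87). The sign of both turned with the processing. Arl4c (-0.27, adjusted p = 0.733), an LXR target that encodes a small GTPase, did not pass either.

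**Figure D4:**
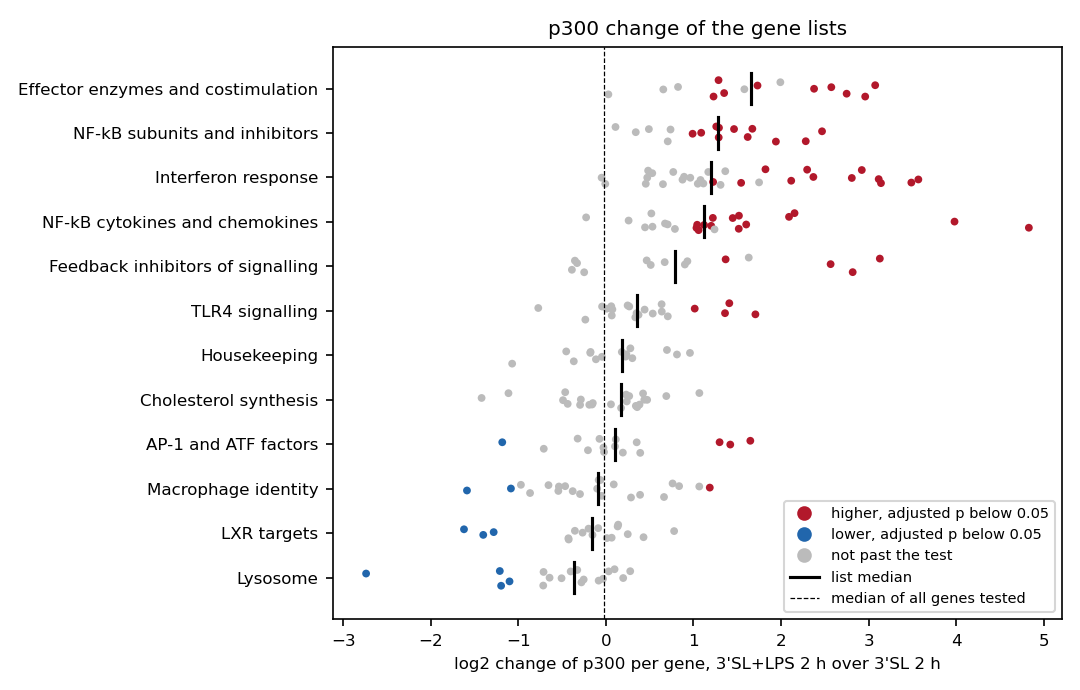
Rows are gene lists and each point is 1 gene, with its log2 change of p300 (3'SL+LPS over 3'SL at 2 h) on the x axis, red or blue where its adjusted p was below 0.05. Black bars mark list medians, from 1.66 for effector genes to -0.36 for lysosome genes, and the dashed line marks the median of all genes tested, -0.02.

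The remaining lower genes of largest change include Mir223, a microRNA gene of myeloid cells, with 29.2 and 9.22 normalised tags with 3'SL+LPS and 93.7 and 139.7 with 3'SL (log2 change -2.72, SE 0.43, adjusted p = 0.000146). Mir687 held 99.0 and 43.8 tags with 3'SL+LPS and 493 and 603 with 3'SL (-3.03, SE 0.33, adjusted p = 1.36e-06), with all 4 of its regions called lower. Cerk, the ceramide kinase gene, held 11.4 and 17.3 tags with 3'SL+LPS and 89.6 and 111 with 3'SL (-2.74, SE 0.52, adjusted p = 0.000963). The groups did not overlap in these 3 genes. Slc7a13 (-3.01), the pseudogene Nlrp1c-ps (-2.85), Gm11747 (-2.75) and the orphan receptor gene Gpr82 (-2.72) had adjusted p from 2.8e-06 to 0.000728, and of these Gpr82 lost its call without 3'SL+LPS replicate 1 (adjusted p = 0.0674) and without the replicate block, by limma and by edgeR. Cerk and Mir223 lost their calls when only regions within 1000 bp of the start were summed.

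Macrophage identity genes are those that define the lineage. Of 22 macrophage identity genes, 1 was higher and 2 lower (median -0.09), against 4.91% higher and 2.65% lower among all 15570 genes. Among them were Tfec (1.19, adjusted p = 0.00848), a TFE family factor gene, and Cd163 (-1.59, adjusted p = 0.00619), a scavenger receptor gene. Both lost their call without at least 1 library, and none of the list passed without the block. By library left out, 1 lower call remained without 3'SL+LPS replicate 1, none without 3'SL+LPS replicate 2, 2 lower without 3'SL replicate 1 and 1 higher without 3'SL replicate 2. Cx3cr1, a chemokine receptor gene, held 324 and 386 normalised tags with 3'SL+LPS and 266 and 539 with 3'SL (log2 change -0.10, adjusted p = 0.905). Pparg, a nuclear receptor gene, held 395 and 287 tags with 3'SL+LPS and 645 and 335 with 3'SL (-0.46, adjusted p = 0.418). Edn1, the endothelin gene, held 159.9 and 203 tags with 3'SL+LPS and 99.2 and 155 with 3'SL (0.53, adjusted p = 0.292). None of 23 tested cholesterol synthesis genes (median 0.17) and none of 15 housekeeping genes (median 0.18, which turned to -0.115 on the authors' scaling and -0.0911 by edgeR) passed by limma or by edgeR with the block, and 1 and 1 of them had an unadjusted p below 0.05 by limma. Leaving out 3'SL replicate 1 gave 1 higher housekeeping gene.

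Markers of other cell types summed to fewer tags, over fewer tested genes, than the macrophage markers. This cannot speak to purity, since the regions are open chromatin of macrophages and loci open only in other cells may have none. Of 6 T cell markers 3 were tested, and of 5 B cell markers 2. The macrophage markers summed to 4502 and 2780.0 normalised tags with 3'SL+LPS and 4101 and 4075 with 3'SL over 8 genes, of which Mertk and Lyz2 were lower. Fibroblast markers summed to 29.2 and 13.8 tags with 3'SL+LPS and 28.9 and 18.5 with 3'SL, and erythroid markers to 20.3 and 11.5 with 3'SL+LPS and 16.5 and 20.0 with 3'SL. Neutrophil markers summed to 95.2 and 48.4 tags with 3'SL+LPS and 93.7 and 42.8 with 3'SL, and T cell markers to 77.4 and 57.6 with 3'SL+LPS and 77.2 and 104 with 3'SL. B cell markers summed to 518 and 333 tags with 3'SL+LPS and 448 and 499 with 3'SL, nearly all of it at Ms4a1, while Cd79a and Pax5 had no tag in the 4 libraries. No marker of another cell type passed the test, and their part in the results was not tested.

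H3K27ac, measured in separate libraries in 1000 bp windows around the same regions, changed in the direction of p300. The contrast of 3'SL+LPS and 3'SL at 2 h gave 6723 higher (8.69%) and 5836 lower (7.54%) of 77387 tested regions. Of the 2729 regions higher for p300 that were tested for H3K27ac, 2150 (78.8%) were higher for H3K27ac and none lower, against 10.4% higher among all 59602 regions tested for both. Of 1042 regions lower for p300, 749 (71.9%) were lower for H3K27ac and none higher, against 9.12% lower among all. The median H3K27ac change was 1.89 at the higher and -1.38 at the lower p300 regions. At the Socs3 region, H3K27ac was 194 and 136 normalised tags with 3'SL+LPS and 3.37 and 1.87 with 3'SL (log2 change 5.53, adjusted p = 1.06e-05). At the Slc7a13 region it was 40.6 and 48.6 tags with 3'SL+LPS and 293 and 457 with 3'SL (-3.01, adjusted p = 1.61e-05). The titles of these libraries were followed, although other labels of 3'SL+LPS replicate 2 read input and vehicle and those of replicate 1 read 1 h. Without that replicate 2 library, 5810 H3K27ac calls were made, and 1903 without the replicate block.

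The response was compared with that of LPS alone at 2 h, which uses other libraries and a lone vehicle library of PBS, replicate 2, since replicate 1 of PBS at 2 h had no matched column in the table used here. That contrast called 3502 regions higher (5.63%) and 906 lower (1.46%), in all 7.08%. Among the 2737 regions higher under 3'SL, 1605 (58.6%) were also called higher for LPS alone, none was called lower, and 98.3% had a log2 change above 0, against 53.2% of all tested regions. Among the 1044 lower regions, 394 (37.7%) were also lower and 3.93% had a change above 0. Side by side, Ccl5 changed by 3.98 under 3'SL and 4.40 for LPS alone, Socs3 by 3.13 and 3.47, Nos2 by 2.38 and 2.94, and Atp6v0d2 by -2.74 and -3.12. Il1a changed by 2.15 under 3'SL and 3.39 for LPS alone, and Ccl4 by 1.52 and 2.74. Other genes changed more under 3'SL, such as Lad1 (4.82 and 3.63), Inpp5b (4.05 and 3.55) and Mx2 (2.81 and 1.60). These examples do not measure how often the change was smaller or larger under 3'SL. None of these genes was among those called by the direct test of the difference at the level of genes, given below. A direct test of the difference between the responses with and without 3'SL called 10 of 62225 regions (0.0161%), all with a lower log2 change under 3'SL. All 10 had 0 tags in the lone vehicle library. edgeR with and without the block, DESeq2 with the block, limma without the block and limma with a pseudocount of 5 called none, limma on the authors' scaling called 35, and 3925 regions had an unadjusted p below 0.05 in the fit with the block. At the level of genes the same test called 6 of 15570 (0.0385%), again all with 0 tags in that library. Of these, Marcksl1, a member of the effector list singled out after its values were seen, changed by 2.75 under 3'SL and 7.06 for LPS alone (difference -4.31, adjusted p = 0.0038).

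At 6 h under 3'SL, 1284 regions were higher (2.06%) and 496 lower (0.797%) with LPS, in all 2.86%. Of the regions higher at 2 h, 895 (32.7%) were also called higher at 6 h and 95.3% had a change above 0, with a median log2 change of 1.49, and of those lower at 2 h, 169 (16.2%) were also called lower, with a median of -0.99. Since regions were called on their 2 h values, a smaller median at 6 h is no test of a difference. The test of the difference between the times called none of 62225 regions by limma, with 3669 at an unadjusted p below 0.05 and a smallest adjusted p of 0.168. edgeR with the block called 4 regions and DESeq2 with the block 5, all with the larger change at 2 h. Among genes none was called by limma, with 946 at an unadjusted p below 0.05. Ccl5 changed by 3.98 at 2 h and 1.89 at 6 h (adjusted p of the difference 0.116), Cxcl10 by 4.83 and 2.47 (0.523), and Nos2 by 2.38 and 3.21 (0.835).

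**Figure D5:**
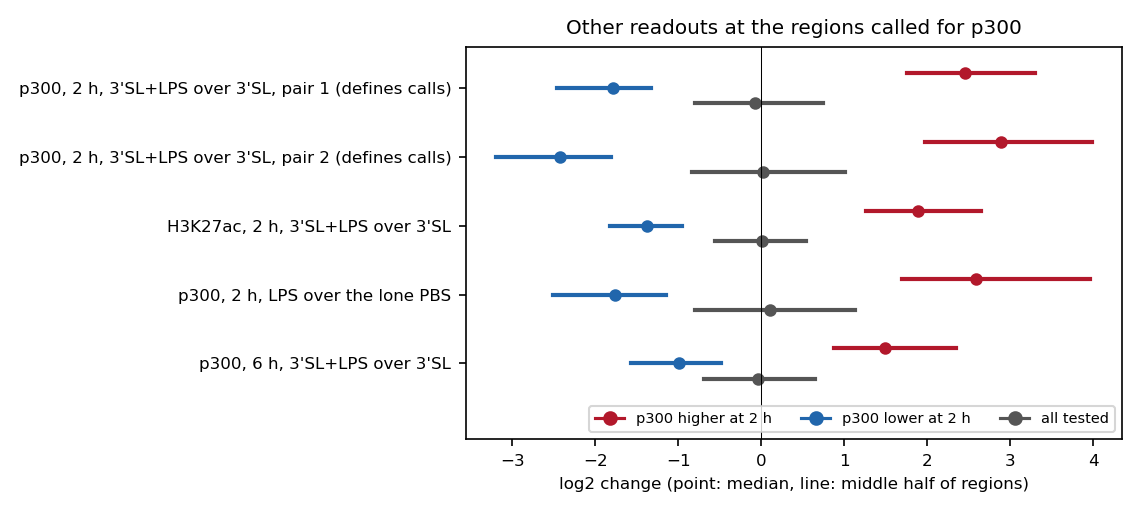
Points are medians and lines the range between quartiles of the log2 changes (x axis) at the regions with more p300 (red), less p300 (blue) and all tested regions (grey), with 1 row per readout. The top 2 rows are the pairs that define the calls. The lower 3 rows use other libraries, in which the red medians run from 1.49 to 2.59 and the blue medians from -1.76 to -0.99.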

How the data were processed

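p300 was measured by ChIP-seq in 14 libraries of 8 groups that enter the model, of which 4 form the comparison. The deposited signal is the tag coverage of each region per 10000000 mapped tags, made by the authors with HOMER on the mm10 genome after Bowtie2 alignment, per the submitters' processing notes, in 200 bp windows for p300 and 1000 bp for H3K27ac per the file headers. The sources used here name no version. Duplicate removal and multi-mapping rules are likewise not given, and both affect low values and repeated genes. Every deposited value came back as a whole tag within a tolerance of 0.05 (100% of values), so depth could be read from the file. Of the columns of the deposited tables, 9 matched no sample or entered no model and were not used.

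Values were scaled by TMM (edgeR 4.0.16), a pseudocount of 1 was added, and log2 values were fitted with limma 3.58.1 (trended empirical Bayes) in R 4.3.3, with group means and the replicate number as a block, 5 residual degrees of freedom and Benjamini-Hochberg adjustment over all regions or genes tested. Changes are thus differences of log2(value + 1), a scale that understates the change of low regions. The block follows the label numbers: in 6 groups with both replicates, replicate differences correlated between groups with r from 0.19 to 0.38. For H3K27ac, 15 libraries entered and r was 0.45 to 0.67 over 7 groups. Replicates of the 2 groups compared differed beyond sampling noise (chi-square per degree of freedom 11.3 with 3'SL+LPS and 10.8 with 3'SL, in regions of at least 20 tags). Scripts were tested on simulated data. edgeR's quasi-likelihood test and DESeq2 1.42.0 on the recovered tags were alternatives.

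Named genes were the 12 called higher and 8 called lower with the largest log2 change, the same sign in both pairs and a mean of at least 50 normalised tags, named regions likewise 10 and 6 with a mean of at least 20, and 26 genes chosen by name. Of each list, up to 4 called genes of smallest adjusted p were added. Members, lists and rules were chosen with earlier results of these data known. Other files of the series were not analysed here. Some single genes and regions within the counts are not reported here.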

Additional observations from a re-analysis of the deposited data

Results flagged for a closer look

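The LPS response of p300 at 2 h differed with and without 3'SL at 10 regions by limma's interaction term with the replicate block. Each had a lower log2 change under 3'SL. The change under 3'SL was below 0 near Hhat (-1.09), Hilpda (-0.52), Rab7 (-0.79) and Wfikkn2 (-1.94), none of which passed there. For LPS alone these regions changed by 4.94, 4.67, 4.65 and 4.09. All 10 had 0 tags in the lone PBS library at 2 h, as did 11.5% of the 62225 tested regions (7153), and that library, replicate 2, is the only vehicle library at 2 h matched to a column of the table used here. The part of this library in the differences was not tested, and edgeR and DESeq2 called none of them, while limma on the authors' scaling called 35 regions.

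The region near Ptges, the gene of a prostaglandin E synthase, held 331.5 and 149.8 normalised tags with 3'SL+LPS and 38.3 and 23.1 with 3'SL, and 361 and 189 with LPS alone. The difference of the log2 changes was -4.80 (SE 0.65, adjusted p = 0.00117). It is 1 of 2 among the 10 that were called higher with LPS under 3'SL, the other being near Tm9sf4 (-4.72), with 165 and 192 tags with 3'SL+LPS and 23.3 and 59.8 with 3'SL. Other differences were -6.03 near Hhat, -5.18 near Bcl2l15, -4.77 near Mir1945, -5.19 near Hilpda, -5.44 near Rab7, -4.84 near Mex3c and -6.03 near Wfikkn2, with adjusted p from 0.0134 to 0.0270.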

How the results depend on the processing

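The 3781 called regions were 742 without the replicate block, 563 by edgeR without it, 2519 over the merged transcription factor regions (36424 tested) and 1136 to 2831 with 1 library left out. The 1177 called genes were 195 without the block, 157 by edgeR without it, 227 with regions within 1000 bp of the start only (fewer genes tested, 10139) and 406 to 926 with 1 library left out, lowest without 3'SL+LPS replicate 2. All calls made without the block were also made with it. The time difference, with 0 regions by limma, gave 4 with a pseudocount of 5, 5 with DESeq2, 4 with edgeR and the block, and 0 to 6 with 1 library left out. The difference with and without 3'SL, 10 regions, gave 35 on the authors' scaling, 0 without the block, 0 with a pseudocount of 5, 0 with DESeq2, 0 with edgeR either way, and 0 to 6 with 1 library left out. The 12559 H3K27ac calls were 1903 without the block, 1790 by edgeR without it and 5810 to 7300 with 1 library left out, and calls were 53.5% higher against 46.1% on the authors' scaling.

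Among named genes and regions, directions turned for 4 genes that did not pass. Abca1 was -0.00164 on the authors' scaling and -0.00457 by edgeR without the block, and -0.297 to 0.418 with 1 library left out, and within 1000 bp it was called higher (1.66, adjusted p = 0.00417). Abcg1 was -1.29 within 1000 bp and -0.147 to 0.417 with 1 library left out. The range over left-out libraries was -0.511 to 0.00133 for Arl4c and -0.437 to 0.227 for Cx3cr1. For named genes and regions, 838 values under alternatives kept direction and call, 56 lost the call, 10 gained it and 10 turned direction. The cause of these changes was not tested.

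With 2 libraries a group and 4153263 tags in the shallowest of the 4, regions of few tags cannot show moderate changes, and intervals and floors cover counting error only.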
